A study of Mus musculus with 4 samples.

Results

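Cholesterol and fatty acid synthesis was followed through 33 genes in 2 neighbouring stem cell fractions of mouse bone marrow. The genes encode enzymes on the route from acetyl-CoA to cholesterol, proteins that sense sterols and control those enzymes, a sterol carrier, and enzymes that make, desaturate and lengthen fatty acids. They were listed by these functions, with earlier results of these data known. All probe sets annotated to 1 of these symbols alone were used, and the brightest probe set, by its mean over the 4 arrays, stood for the gene. Of the 33 genes, 32 had such a probe set (77 probe sets in all), out of 18193 genes named on the array. Acat2 was not analysed here. After a filter on dim probe sets 65 of the 77 remained, and the brightest probe set of each of the 32 genes was among them.

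The fractions were long-term haematopoietic stem cells (LT-HSC), sorted as lineage-negative cKit+ Sca1+ CD34- CD135- cells, and short-term haematopoietic stem cells (ST-HSC), which differ in the gate by being CD34+. Each was measured on 2 Affymetrix arrays. All mice were C57BL/6 and MxCre-. They carried loxP-flanked alleles without the inducible Cre that would delete them, and all had been given 7 injections of poly(I:C), a mimic of viral RNA. Both LT-HSC arrays and ST-HSC replicate 2 used mice aged 7.5 weeks, and the last injection lay 4 weeks back. For ST-HSC replicate 3 the mice were 8.5 weeks old and the injection 3 weeks back, so age and time since injection cannot be told apart from the other differences between the ST-HSC arrays. For the ST-HSC samples the tissue label says LT-HSC although the gate is CD34+, and their titles set the group. Nothing says whether the samples of a group came from separate animals or pools, and p-values then measure only the spread between these samples, which may be technical.

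The arrays were checked against the gates and against other marrow cells before the members were read. Cd34 read 18.3 and 23.5 on the LT-HSC arrays and 841 and 1142 on the ST-HSC arrays. Kit, which both gates require, passed as lower in LT-HSC (-1.02, limma adjusted p = 0.0498). Flt3, which encodes the CD135 that both gates exclude, read 62.3 and 53.4 on the LT-HSC arrays and 258 and 134 on the ST-HSC arrays (-1.37, limma adjusted p = 0.0631). Transcripts of cells that the gate should remove were also present. All 8 plasma cell markers passed the test as higher in LT-HSC, and their summed intensity was 47440 and 47860 on the LT-HSC arrays and 1747 and 2796 on the ST-HSC arrays. Among 8 tested markers of B cells 4 passed as higher and 0 as lower, with sums over the 9 named markers of 4774 and 5376 against 374.1 and 624.9. The 9 named granulocyte markers summed to 53440 on ST-HSC replicate 3, against 3807 on ST-HSC replicate 2 and 4238 and 508 in LT-HSC. Of 19 markers of dividing cells 17 passed as lower in LT-HSC, with sums of 7792 and 10020 against 26540 and 31400. The part of these cells in the results below was not tested. In bulk samples such as these, fewer cells of a type and less RNA per cell cannot be told apart.

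Cells make cholesterol from acetyl-CoA through mevalonate and squalene, and the isoprenoids on that route also supply lipid anchors for proteins. When membrane sterol is low, Scap escorts the SREBP factors, encoded by Srebf1 and Srebf2, from the endoplasmic reticulum to the Golgi, where they are cut and released to switch on the synthesis genes. Insig proteins hold Scap back when sterol is plentiful. Growing cells draw on both sterol and fatty acid synthesis for new membrane.

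Of the 32 genes 3 passed limma's test at an adjusted p under 0.05. Scd1, a fatty acid desaturase, was higher in LT-HSC, and Idi1, an isomerase of the isoprenoid route, and Fads1, a desaturase of polyunsaturated fatty acids, were lower. That is 9.38% of the members, against 14.3% of the 12832 genes tested in the same way (7.92% higher and 6.41% lower). The median log2 difference (LT-HSC minus ST-HSC, on the log2(intensity + 16) scale) was -0.15 over the members and -0.08 over all genes tested. Both arrays of 1 group lay above both of the other for 24 members (75.0%, against 64.3% of all genes), with LT-HSC above for 11 (against 28.6% of all genes) and below for 13 (against 35.7%). At an adjusted p under 0.10 limma's test was passed by 7 members and by 23.9% of all genes. An unadjusted p under 0.05 was found for 11 members (34.4%), against 33.1% of all genes tested. With no filter on dim probe sets Fads1 no longer passed (limma adjusted p = 0.0602), and 7.88% of all genes did. With the probe sets of a gene averaged, Scd1 and Stard4 passed (10.7% of all genes did), and Idi1 and Fads1 had limma adjusted p = 0.0524 and 0.0996.

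**Figure D1:**
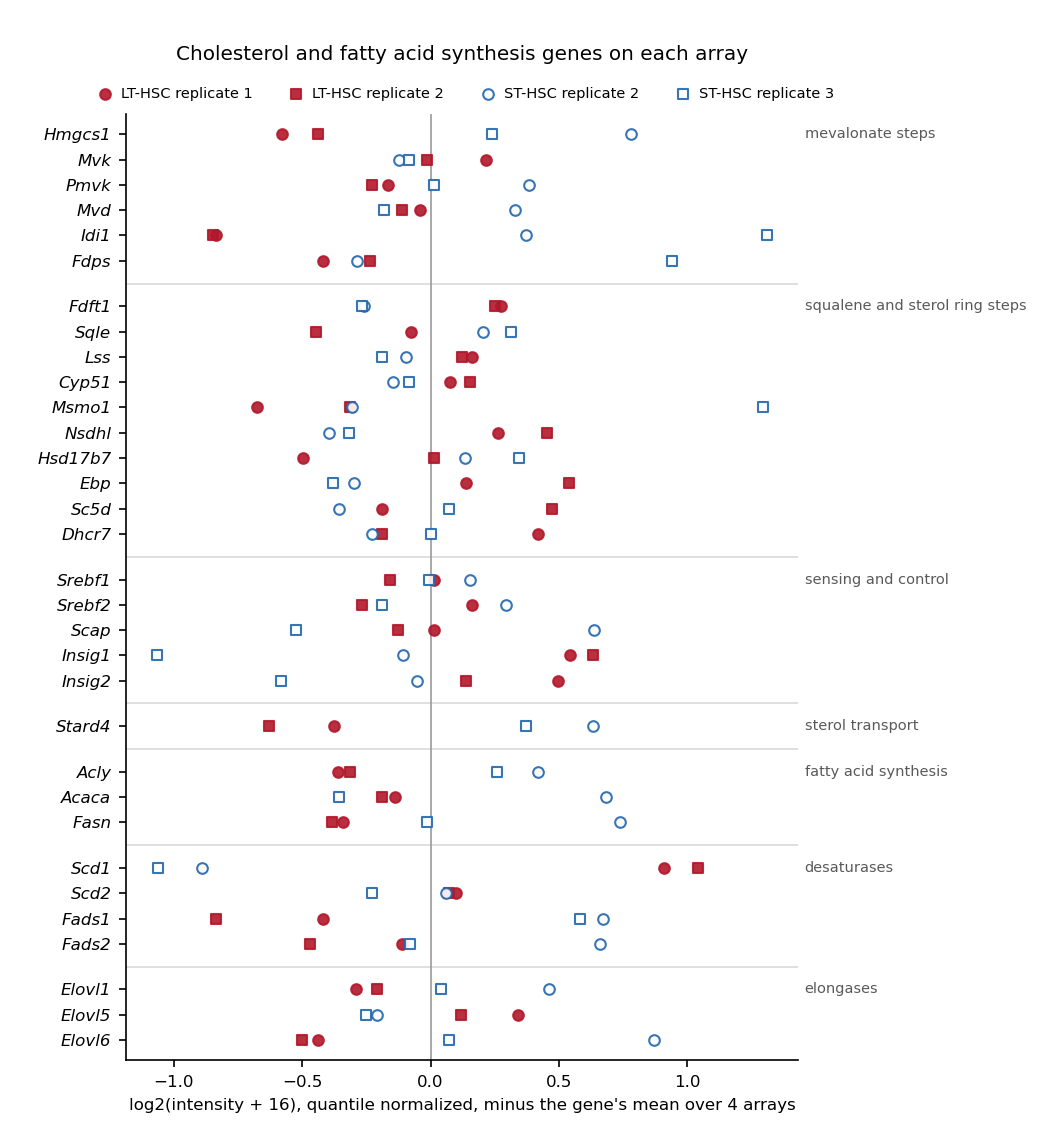
Each row is a gene, and each point 1 array: filled red for LT-HSC, open blue for ST-HSC, circles and squares for the 2 arrays of a group. The horizontal axis is the quantile normalized log2(intensity + 16) minus the gene's mean over the 4 arrays. The groups are apart for 24 genes and overlap for 8, and the widest gap between the ST-HSC arrays is that of Msmo1.

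Of the 6 measured genes of the mevalonate steps 1 passed as lower, 0 passed as higher and 5 did not pass, with a median of -0.53. Idi1, which interconverts the 5-carbon isoprenoid units, read 81.6 and 99.8 on the LT-HSC arrays and 259 and 483 on the ST-HSC arrays. Every LT-HSC value lay below every ST-HSC value. The log2 means were 6.80 ± 0.01 (SD, n = 2) and 8.49 ± 0.66 (SD, n = 2), a 3.21-fold difference (-1.68, SE 0.38, limma adjusted p = 0.0369). Hmgcs1, the synthase that makes the HMG-CoA from which mevalonate is formed, read 279 and 319 on the LT-HSC arrays and 717 and 526 on the ST-HSC arrays. Its groups did not overlap, and its difference on the brightest probe set did not pass (-1.02, SE 0.30, limma adjusted p = 0.0703). A pair of its further probe sets did pass, at -1.28 and -1.50 (limma adjusted p = 0.0368 and 0.0441). The former carries Affymetrix's x suffix, which marks probes shared with other transcripts. Another, dimmer probe set lay at -1.11 and did not pass (limma adjusted p = 0.161). Fdps, which joins isoprenoid units to farnesyl pyrophosphate, read 28.6 and 47.9 on the LT-HSC arrays and 46.9 and 116 on the ST-HSC arrays, so only ST-HSC replicate 3 stood apart. Pmvk (-0.40), Mvd (-0.15) and Mvk (0.21), the 3 enzymes that phosphorylate and decarboxylate mevalonate, had adjusted p-values from 0.427 to 0.789.

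The upstream sequences of Hmgcs1 and Idi1, lower in LT-HSC on at least 1 probe set, are shown beside that of Insig1, which had the largest positive difference of the sterol-sensing group on the brightest probe sets, because SREBP factors are known to act at such promoters together with NF-Y and Sp1. They are the 250 bases before the annotated start, from RefSeq on GRCm38.p6, 5′ to 3′ on the gene's strand (plus for all 3), at chr13:119690101-119690350, chr13:8885356-8885605 and chr5:28071162-28071411. Capitals mark matches, on either strand, to a sterol regulatory element (TCACNCCAC), an E-box (CACGTG), an NF-Y box (CCAAT, written ATTGG on the other strand) or an Sp1 box (GGGCGG, or CCGCCC).
Hmgcs1: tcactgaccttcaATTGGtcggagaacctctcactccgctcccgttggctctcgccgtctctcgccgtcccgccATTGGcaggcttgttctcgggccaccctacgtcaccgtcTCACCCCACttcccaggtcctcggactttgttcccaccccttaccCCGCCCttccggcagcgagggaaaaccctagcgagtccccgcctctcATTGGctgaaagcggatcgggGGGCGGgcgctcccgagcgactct
Idi1: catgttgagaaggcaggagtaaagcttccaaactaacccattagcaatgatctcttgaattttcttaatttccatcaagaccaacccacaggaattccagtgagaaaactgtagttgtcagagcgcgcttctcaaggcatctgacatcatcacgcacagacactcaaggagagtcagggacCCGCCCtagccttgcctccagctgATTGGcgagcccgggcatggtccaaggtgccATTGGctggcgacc
Insig1: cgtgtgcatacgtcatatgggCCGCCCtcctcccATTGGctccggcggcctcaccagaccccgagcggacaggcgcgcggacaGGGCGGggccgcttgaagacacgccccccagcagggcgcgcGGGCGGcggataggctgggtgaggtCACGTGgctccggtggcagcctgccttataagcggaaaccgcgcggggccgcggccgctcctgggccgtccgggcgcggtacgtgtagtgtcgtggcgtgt
Hmgcs1 held the sterol element 137 bases before its start and was the 1 member of the 25 with a window that held it. Idi1 and Insig1 had no such match in these windows. Scd1, Sqle, Fdft1, Stard4, Scd2, Fdps and Fads1 had no window. Scd1 and Fads1, which passed limma's test, were therefore not searched. In the 300-base windows that reach 50 bases past the start, an NF-Y box was found for 21 of the 25 members (84.0%) and for 42.4% of the 10363 tested genes that have a window. An Sp1 box was found for 20 members (80.0%, against 66.2%), an E-box for 6 of the 25 (against 11.4%) and the sterol element for 1 of the 25 (against 1.44%). Over all 32851 windows of the table the shares with a match were 37.4% for NF-Y, 35.7% for Sp1, 7.15% for the E-box and 1.24% for the sterol element. NF-Y boxes were held by Idi1, by Hmgcs1, Acly and Fasn, whose differences were negative and did not pass on the brightest probe set, and by Insig1, Ebp and Nsdhl, whose differences were positive and did not pass. These are letter matches and say nothing of binding. Among 109 matches in the members' windows 2 pairs overlapped.

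Of the 10 genes that turn farnesyl units into squalene and then into cholesterol 0 passed limma's test, and 2 had an unadjusted p under 0.05. Those 2, Nsdhl and Ebp, had higher values in LT-HSC. Nsdhl, a dehydrogenase that removes a methyl group from the sterol ring, read 326 and 384 on the LT-HSC arrays and 224 and 220 on the ST-HSC arrays (0.71, SE 0.28, limma adjusted p = 0.143). Ebp, the isomerase that shifts the ring's double bond, read 793 and 1038 on the LT-HSC arrays and 529 and 530.5 on the ST-HSC arrays (0.68, SE 0.26, limma adjusted p = 0.13). For both genes the groups did not overlap and the ST-HSC arrays lay within 0.09 of each other on the log2 scale.

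Msmo1, the sterol C4 methyl oxidase of the same demethylation steps, read 34.8 and 65.7 on the LT-HSC arrays and 70.3 and 217 on the ST-HSC arrays. Its difference of -0.99 (SE 0.53, limma adjusted p = 0.259) rested on ST-HSC replicate 3, since ST-HSC replicate 2 lay 0.19 above the LT-HSC mean. Sqle, squalene epoxidase, had a difference of -0.52 with adjusted p = 0.276, and its groups did not overlap. Fdft1 (squalene synthase, 0.53), Lss (lanosterol synthase, 0.28), Cyp51 (lanosterol demethylase, 0.23), Sc5d (a sterol desaturase, 0.29), Dhcr7 (the reductase of the last step, 0.23) and Hsd17b7 (a ketosteroid reductase, -0.49) had adjusted p-values from 0.237 to 0.677. Each of Fdft1, Lss, Cyp51, Sc5d and Hsd17b7 had a further tested probe set with a difference of the opposite sign.

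Among the 5 genes of sterol sensing and control 0 passed on the brightest probe set, and 1, Insig1, had an unadjusted p under 0.05. The intensities of Insig1, the retention factor that is itself an SREBP target, were 538.8 and 567.5 on the LT-HSC arrays and 345 and 162 on the ST-HSC arrays. All LT-HSC values were above all ST-HSC values, and the ST-HSC arrays were 0.95 apart on the log2 scale. The 2.25-fold difference did not pass (1.17, SE 0.37, limma adjusted p = 0.086). Insig2, its paralogue, read 324 and 257 against 239 and 148 (0.63, SE 0.33, limma adjusted p = 0.244). A further probe set of Insig2 passed as higher in LT-HSC, at 272 and 313 against 155 and 80.0 (1.35, limma adjusted p = 0.048).

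The transcripts of the SREBP factors and of Scap had small mean differences, which did not pass and do not show that the levels were equal. Srebf1 lay at -0.15, Srebf2 at -0.11 and Scap at -0.11, with SEs of 0.27, 0.34 and 0.38 and adjusted p-values from 0.747 to 0.869. Their groups overlapped. Scap read 1330 and 1155 in LT-HSC, between the ST-HSC values of 1674 and 838. Array levels of these transcripts do not show how much SREBP protein was cut and active. Stard4, which carries cholesterol between membranes, read 89.15 and 89.94 on the LT-HSC arrays and 242 and 186 on the ST-HSC arrays. Its groups were apart on all 3 tested probe sets, whose differences ran from -1.50 to -0.91, and the brightest had limma adjusted p = 0.0797.

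**Figure D2:**
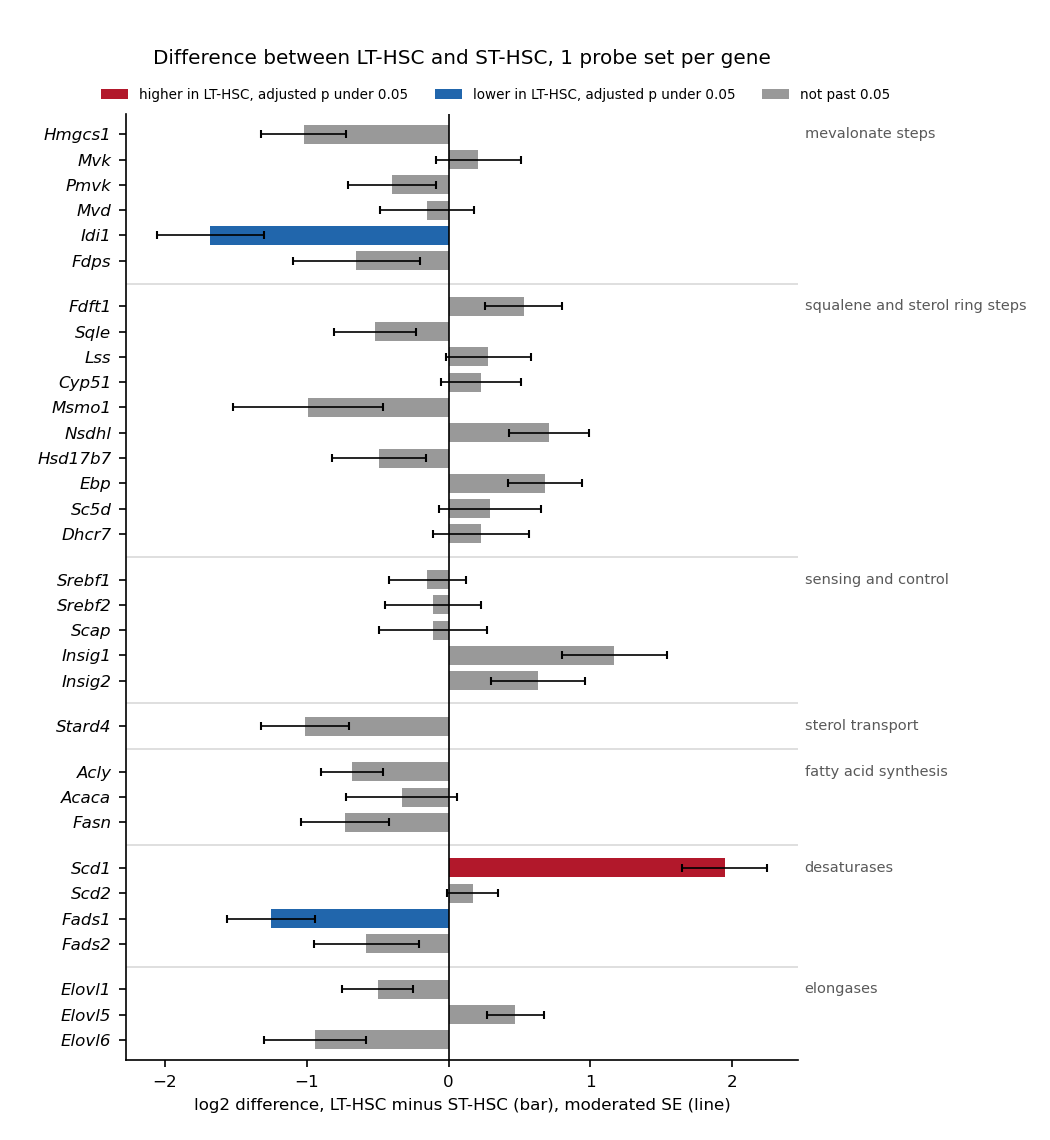
Bars give the log2 difference, LT-HSC minus ST-HSC, for the 32 genes by role, and the thin lines the moderated SE of the fit over 2 arrays a group. Red (Scd1) and blue (Idi1 and Fads1) mark an adjusted p under 0.05, and grey the other 29 genes.

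The 3 genes that carry acetyl units into palmitate had negative differences on their brightest probe sets, and 0 passed. Acly, which makes cytosolic acetyl-CoA from citrate, read 832.5 and 837.5 on the LT-HSC arrays and 1250 and 1188 on the ST-HSC arrays (-0.68, SE 0.22, limma adjusted p = 0.0873). Fasn, fatty acid synthase, read 463 and 451 against 924 and 599 (-0.73, limma adjusted p = 0.173). The groups of both genes did not overlap on these brightest probe sets, of which that of Acly carries the x suffix. Acly's other tested probe sets did not pass (limma adjusted p from 0.265 to 0.843). Those at -0.60 and 0.11 had overlapping groups, and the one at -0.59 did not. Acaca, the acetyl-CoA carboxylase ahead of Fasn, read 312 and 312 in LT-HSC, between ST-HSC values of 557 and 275 (-0.33, limma adjusted p = 0.602). Of this group 1 gene, Acly, had an unadjusted p under 0.05 on its brightest probe set.

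Of the 4 desaturases 1 passed as higher in LT-HSC, 1 as lower and 2 did not pass. Scd1, which puts the first double bond into stearate and palmitate, read 78.6 and 108 on the LT-HSC arrays and 16.2 and 13.5 on the ST-HSC arrays. The ST-HSC values lay below the median intensity of their arrays. Their normalized log2 values, 4.97 and 4.80, were also under the cut of the filter on dim probe sets. The probe set was thus tested only through its LT-HSC arrays. With no filter it passed as well (limma adjusted p = 0.0175). The log2 means were 6.84 ± 0.09 (SD, n = 2) and 4.89 ± 0.12 (SD, n = 2), a 3.85-fold difference (1.95, SE 0.30, limma adjusted p = 0.0113). A further, dimmer probe set of Scd1 read 16.4 and 45.6 on the LT-HSC arrays and 15.1 and 9.99 on the ST-HSC arrays. That probe set did not pass (0.76, limma adjusted p = 0.19). The summed plasma cell and B-cell markers given above were higher on the same arrays as Scd1, and their part in its difference was not tested. The 5 named adipocyte markers summed to 58.63 and 83.04 on the LT-HSC arrays and 130.6 and 111.8 on the ST-HSC arrays. Adipoq, Fabp4, Lep and Lpl had negative differences and Pparg a positive one (0.70). The part of adipocyte RNA in the difference of Scd1 was not tested either. Scd2, the isoform of most non-hepatic tissues, read 2723 and 2521 against 2053 and 1801 on its bright probe set. Its groups did not overlap there, and the difference did not pass (0.17, limma adjusted p = 0.57). That difference was 0.44 without normalization and 0.55 with centred arrays, and did not pass in either (limma adjusted p = 0.178 and 0.303). A dim probe set of Scd2 passed as higher in LT-HSC, at 30.6 and 78.6 against 6.45 and 3.91 (1.78, limma adjusted p = 0.0256). Its ST-HSC log2 values, 4.45 and 4.26, were under the filter's cut too, so it was tested only through its LT-HSC arrays. Scd1 and Scd2 are close paralogues, and the probes' sequences were not used here, so that probe set's transcript is uncertain.

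Fads1, the delta-5 desaturase of polyunsaturated fatty acids, read 137 and 115 on the LT-HSC arrays and 357 and 319 on the ST-HSC arrays. The groups were apart by more than the spread of either. The log2 means were 7.19 ± 0.30 (SD, n = 2) and 8.44 ± 0.07 (SD, n = 2), a 2.38-fold difference (-1.25, SE 0.31, limma adjusted p = 0.0453). Its further probe set was dim and lay at -0.31. Fads2, the delta-6 desaturase ahead of it, read 28.2 and 27.9 against 83.9 and 36.9 (-0.58, limma adjusted p = 0.331). A second probe set of Fads2, brighter by mean intensity, lay at -1.27 (limma adjusted p = 0.0537).

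Of the 3 elongases 0 passed, and 2 had an unadjusted p under 0.05. Elovl6, which lengthens palmitate to stearate, read 127 and 140 on the LT-HSC arrays and 391 and 210 on the ST-HSC arrays (-0.94, SE 0.36, limma adjusted p = 0.133). Its 3 tested probe sets ran from -1.21 to -0.91. Elovl5, the elongase of polyunsaturated chains, read 2267 and 1857 against 1246 and 1281 on its brightest probe set (0.47, limma adjusted p = 0.163). Its other probe set lay at -0.29. Elovl1, which acts on very long saturated chains, had a difference of -0.50 and 4 tested probe sets from -1.03 to -0.44.

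Within a group, the ST-HSC arrays lay further apart than the LT-HSC arrays. The size of the gap between the 2 arrays of a group had a median over the members of 0.33 in ST-HSC and 0.15 in LT-HSC, against 0.37 and 0.23 over all genes tested. The ST-HSC gap was the larger for 62.5% of members and 62.4% of all genes tested. It was over 0.7 for 9 members (28.1%, against 22.9% of all genes tested). Of these, ST-HSC replicate 3 was above replicate 2 for Msmo1 (1.60), Fdps (1.22) and Idi1 (0.94). It was below replicate 2 for Scap (-1.17), Acaca (-1.04), Insig1 (-0.95), Elovl6 (-0.81), Fasn (-0.75) and Fads2 (-0.74). With the LT-HSC pair set against 1 ST-HSC array at a time, the counts rose, with the spread then taken from the LT-HSC pair and the lone ST-HSC array assumed to vary like it. Against ST-HSC replicate 3, 8 members passed as higher in LT-HSC and 6 as lower (43.8% of members, against 37.1% of all genes, 17.7% higher and 19.4% lower). Against ST-HSC replicate 2, 5 passed as higher and 10 as lower (46.9%, against 27.6%, 12.7% higher and 14.8% lower). These comparisons share the LT-HSC arrays.

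Scap passed in both and in opposite directions, at -0.70 against ST-HSC replicate 2 (limma adjusted p = 0.00158) and 0.48 against ST-HSC replicate 3 (limma adjusted p = 0.0216). Fasn lay at -1.11 against the former (limma adjusted p = 0.00033) and at -0.38 against the latter (limma adjusted p = 0.152). Msmo1 lay at -0.19 and -1.80, with limma adjusted p = 0.799 and 0.00197. Insig1 lay at 0.68 and 1.71, and passed in both (limma adjusted p = 0.0183 and 4.84e-05). Hmgcs1, at -1.29 and -0.78, also passed in both (limma adjusted p = 0.000325 and 0.0133). Leaving out an LT-HSC array had the opposite effect on the count. Without LT-HSC replicate 1 or 2, 0 members passed in limma, where 1.96% and 1.99% of all genes did. An unadjusted p under 0.05 was then found for 3 and 2 members (9.38% and 6.25%, against 16.7% and 20.9% of all genes). Scd1 was then at 2.0 and 1.9 (limma adjusted p = 0.0713 and 0.0724), Idi1 at -1.63 and -1.69 (0.269 and 0.206) and Fads1 at -1.41 and -1.05 (0.27 and 0.319).

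**Figure D3:**
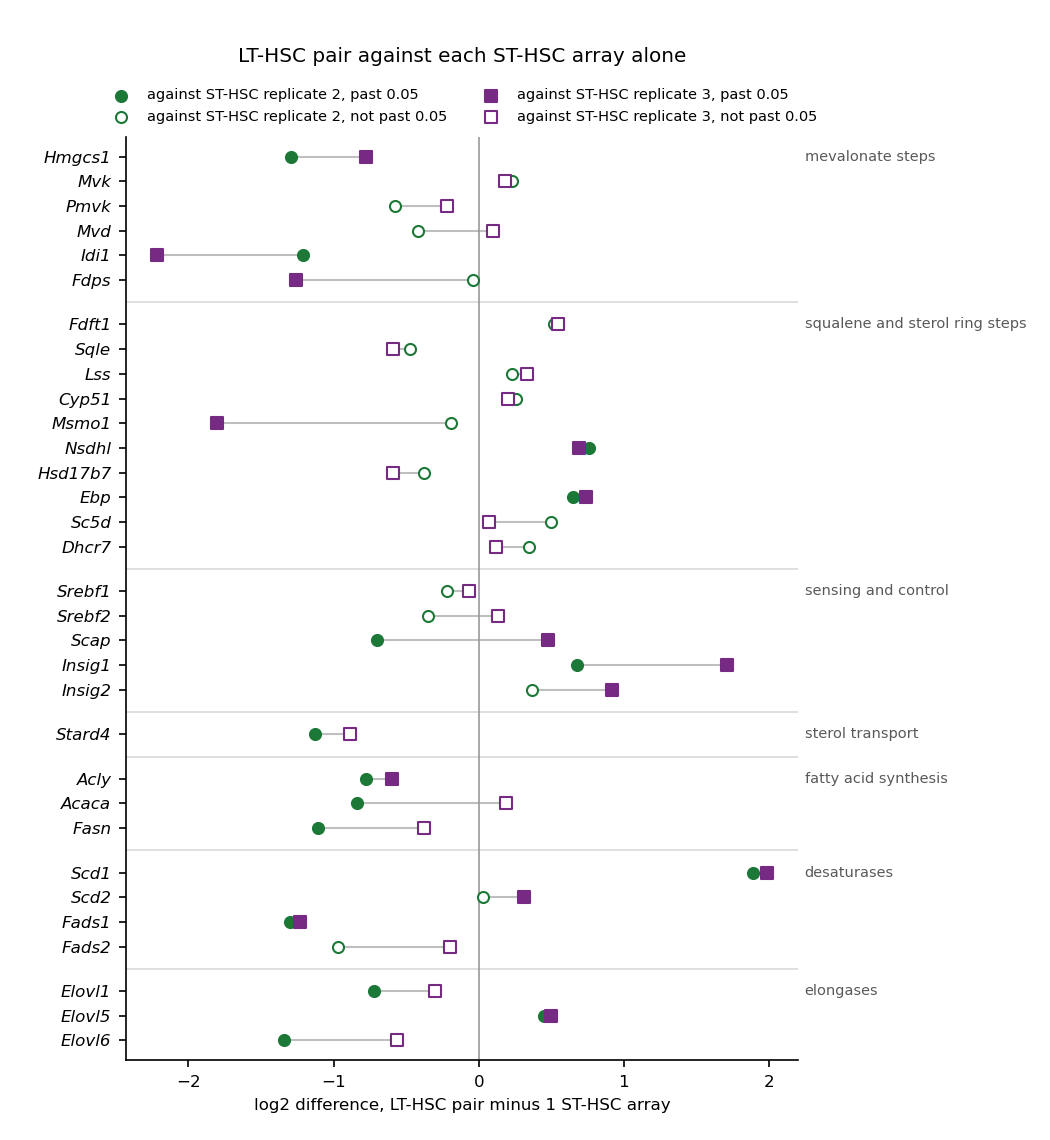
Each row gives a gene's log2 difference between the LT-HSC pair and ST-HSC replicate 2 alone (green circle) or ST-HSC replicate 3 alone (purple square), filled where the adjusted p was under 0.05. Both comparisons use the same LT-HSC arrays. Msmo1, Fdps, Scap and Acaca are far apart between them, while Scd1, Fads1, Nsdhl and Ebp lie close together.

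Several probe sets of 1 gene often differed. Of the 20 members with more than 1 tested probe set, 10 had all of them on 1 side of 0 and 10 on both sides. Hmgcs1, Idi1, Stard4, Fads1, Fads2, Elovl1 and Elovl6 were negative throughout, and Mvk, Insig2 and Scd1 positive throughout. Cyp51 had 0.23 on its brightest probe set and -1.10 on a dimmer one (16.4 and 21.0 on the LT-HSC arrays and 50.6 and 79.5 on the ST-HSC arrays, limma adjusted p = 0.0887). Of the 65 probe sets 7 passed, 3 higher and 4 lower (10.8%, against 12.2% of the 27022 tested, 6.72% higher and 5.48% lower). They belonged to 6 genes. The brightest probe sets of 5 members (Fdft1, Hsd17b7, Acly, Elovl1 and Elovl5) carry Affymetrix's x suffix and those of Mvd and Lss the s suffix, which mark probes shared with other transcripts, so their values are less certain.

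**Figure D4:**
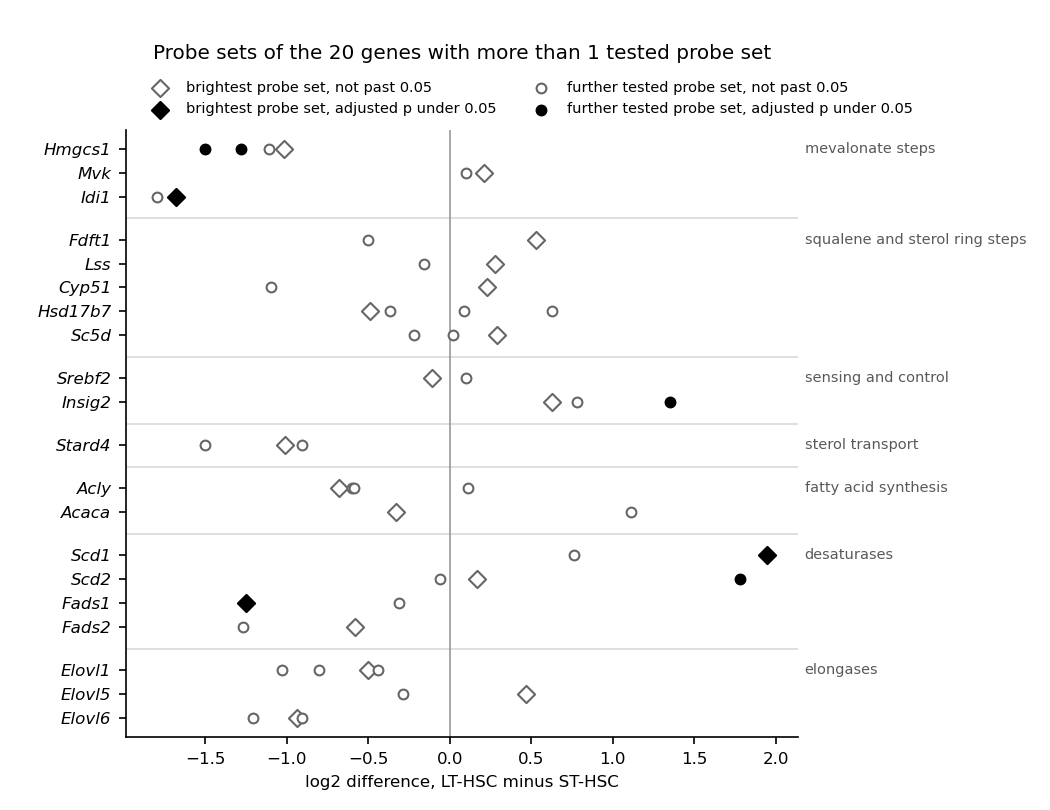
The log2 difference, LT-HSC minus ST-HSC, of each tested probe set is shown for the 20 genes that have more than 1. Diamonds are the brightest probe set, circles the others, and filled symbols passed at an adjusted p under 0.05. For 10 genes the symbols lie on both sides of 0.

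Around these steps, other genes of lipid handling were read as counts from lists of related functions, and 10 of the 85 tested passed (11.8%, against 14.3% of all genes). Of 12 genes of sterol uptake, efflux and storage 1 rose and 1 fell in LT-HSC. Abca1, which exports cholesterol from the cell, read 981 and 820 on the LT-HSC arrays and 233 and 155 on the ST-HSC arrays, a 4.40-fold difference (2.14, SE 0.29, limma adjusted p = 0.00744). Scarb1, the receptor that takes up cholesterol from HDL, read 54.4 and 105 against 513 and 446, a 5.15-fold difference in the opposite direction (-2.36, SE 0.32, limma adjusted p = 0.00748).

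Of 11 genes of SREBP processing and partner factors 1 rose and 1 fell. Fbxw7, the ubiquitin ligase subunit that marks nuclear SREBP and Myc for destruction, rose by 1.75 in LT-HSC (limma adjusted p = 0.0123), and Nfya, a subunit of NF-Y, fell by 1.49 (limma adjusted p = 0.0265). Of 11 other genes of sterol and isoprenoid synthesis 1 passed. It was Erg28, a scaffold of the sterol C4 demethylation complex to which Nsdhl belongs, at 644.1 and 425.5 on the LT-HSC arrays and 154.3 and 182.5 on the ST-HSC arrays (1.60, limma adjusted p = 0.0269).

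Of 22 other genes of fatty acid synthesis and activation 1 rose and 2 fell. Hacd1, a dehydratase of the elongation cycle, read 192 and 218 against 752 and 1600 (-2.37, limma adjusted p = 0.0125), Acsl3, an acyl-CoA synthetase, fell by 1.65 (limma adjusted p = 0.0279), and Acss1, the mitochondrial acetyl-CoA synthetase, rose by 1.10 (limma adjusted p = 0.0497). Of 11 genes of glycerolipid synthesis the acyltransferase genes Agpat3 and Agpat4 rose by 1.98 and 1.22 (limma adjusted p = 0.00895 and 0.0349). Each passed on 1 of its tested probe sets (4 and 2). The probe sets given for Scarb1 and Agpat4 carry the x suffix. Those given for Erg28, Hacd1 and Acsl3 carry the s suffix. The values from all of these suffixed probe sets are less certain. Of 18 genes of fatty acid oxidation 0 passed in limma and 5 had an unadjusted p under 0.05, against 33.1% of all genes tested. Their differences ran from -1.09 to 0.11, with a median of -0.41 (-0.08 over all genes tested). They were negative for 15 of the 18, and for 6937 of all 12832 genes tested. All 10 genes of these lists that passed did so without either ST-HSC array, and 0 of the 10 did without LT-HSC replicate 1 or without LT-HSC replicate 2.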

How the data were processed

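Probe set values of 4 Affymetrix mouse arrays were analysed, 2 for LT-HSC and 2 for ST-HSC. Trizol-extracted RNA went through 2 amplification rounds before biotin labelling, per the labels' protocols. The authors deposited 1 linear intensity per probe set and array. How it was summarised and scaled is not stated in the labels or files used. Of 45101 probe sets 64 are controls, which were omitted. Array medians ranged from 19.1 to 28.3.

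Here 16 was added to each intensity, log2 was taken and the arrays were quantile normalized. The added 16 understates the fold of dim probe sets. Only probe sets with a mean over the 40th percentile were kept, and these 27022 were tested with limma 3.58.1 in R 4.3.3 (lmFit, eBayes with an intensity trend). Benjamini-Hochberg adjustment covered all 27022, with a threshold of 0.05. Precision is limited by 2 arrays a group: an exact permutation test could not give a two-sided p under 0.33. The fit was tested on simulated data. Probe sets were named by the supplied platform annotation and promoters by RefSeq (GRCm38.p6, Python 3.11.15 for the matches).

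The members, lists and tests were chosen with earlier results of these data known. All members are named, as are up to 4 genes past the threshold per further list. Counts and medians of lists are descriptions. Alternatives changed normalization, pseudocount, filter, spread model, threshold, probe set rule and arrays used.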

Additional observations from a re-analysis of the deposited data

How the results depend on the processing

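Scd1 passed as higher, and Idi1 and Fads1 as lower, under both other normalizations, both other pseudocounts, the stricter filter, both other spread models and the 2 probe set rules added after the data were seen. Fads1 no longer passed with no filter on dim probe sets, which left 1 member lower, and with probe sets averaged per gene Idi1 and Fads1 did not pass while Stard4 did, again 1 lower. At an adjusted p under 0.10, 2 members were higher and 5 lower. With each array left out in turn, the members higher ranged from 0 to 8 and those lower from 0 to 10. The median over the members ranged from -0.29 to 0.09 over all settings.

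Signs turned for 11 members under at least 1 setting. None of them passed with all 4 arrays. Scap and Elovl5 passed with either ST-HSC array left out, and Acaca without ST-HSC replicate 3. Without normalization Scap was at 0.06, and with centred arrays at 0.17. With probe sets averaged Lss was at -0.17, Cyp51 at -0.27 and Acaca at 0.39. With each array left out in turn, Dhcr7 ran from -0.07 (without LT-HSC replicate 1) to 0.55 and Sc5d from -0.04 (without LT-HSC replicate 2) to 0.60. Mvd ran from -0.42 to 0.10, Srebf2 from -0.35 to 0.13, Scap from -0.70 to 0.48 and Acaca from -0.84 to 0.19, each highest without ST-HSC replicate 2. Srebf2 was also at 0.11 without LT-HSC replicate 2. With probe sets of an x or s suffix passed over, Fdft1 was at -0.50, Lss at -0.16, Hsd17b7 at 0.09 and Elovl5 at -0.29. The causes were not tested.

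No paired analysis was possible because the groups share only replicate number 2. Depth has no counterpart on these arrays, and no detection calls came with the values.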
